A study of Mus musculus with 12 samples.

Results

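The marker genes of hepatic stellate cells and fibroblasts followed here were 10 in number (*Lrat*, *Reln*, *Hhip*, *Pdgfrb*, *Rgs5*, *Des*, *Acta2*, *Tagln*, *Dcn* and *Lum*) and were measured by RNA sequencing of mouse livers and liver tumors. They were taken as a fixed list by Entrez gene ID, 10 of the 26301 genes in the count table, and all 10 passed the filter on low counts that left 13882 genes for testing. There were 3 groups of 4 libraries. The control group was adult wild-type liver. The DKO group was spontaneous liver tumors labelled Alb-Cre-E2f7 E2f8 knockout, and the TKO group was spontaneous liver tumors labelled Alb-Cre-Rb1 E2f7 E2f8 knockout. According to the paper the mice had been bred into FVB, and tumors were taken when the animals reached the end of life. The titles of the control livers say only that they were adult, without an age at sampling. For its tissue staining the paper describes controls as littermates without Alb-Cre, taken when the Alb-Cre mice were. It does not state this for the sequenced livers, which it calls wild-type. The paper reports a longer tumor latency in DKO than in TKO mice. Age at sampling may therefore differ between the groups along with genotype, and its part in the values was not tested. No other treatment was given in the labels. Alb-Cre acts under the albumin promoter of hepatocytes, so the stellate cells and fibroblasts of these tumors were not the cells that the deletion was aimed at. The knockout groups were tumors and the control group was not, so tumor and genotype cannot be told apart in either comparison with controls.

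Hepatic stellate cells lie between the hepatocytes and the sinusoidal endothelium, where in the quiescent state they store vitamin A as retinyl esters. When the liver is injured they can lose these stores, take on a contractile, myofibroblast-like state and lay down collagen. Fibroblasts of the portal tract, pericytes and vascular smooth muscle share many of their genes, so none of the 10 markers is read here as belonging to 1 cell type. In RNA from whole tissue, fewer cells of a type and less RNA per cell cannot be told apart.

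The libraries held 9165812 to 16190797 counts in controls, 13156779 to 16424973 in DKO and 10455159 to 16313303 in TKO. Levels are given as CPM (read counts scaled to a common library size), with the size set by the trimmed mean of M values, and as mean ± SD with n = 4 unless stated. *Rb1* was lower in the TKO libraries (3.21 to 5.47 CPM) than in the control (6.52 to 10.7 CPM) and DKO libraries (7.99 to 11.3 CPM). *E2f7* overlapped between all groups at 0.236 to 1.84 CPM, and *E2f8* stood at 4.52 to 8.97 CPM in controls, 7.59 to 45.6 CPM in DKO and 12.3 to 52.2 CPM in TKO. Counts here are per whole gene and which exons were removed is not given in the sources used here, so that the lack of lower *E2f7* and *E2f8* counts neither bears out the labelled deletion nor shows it to be absent. Genes of liver endothelium, Kupffer cells and hepatocytes were present in every library, whereas a list of striated muscle genes summed to only 10.2 to 20.2 CPM.

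A single library decided most of what follows. DKO replicate 3 held the highest value among the DKO libraries for 10 of 10 markers, and the highest of all 12 libraries for 9 of 10. DKO replicate 4 was the lowest DKO library for 7 of 10, and TKO replicate 3 was the highest TKO library for 6 of 10. Over all tested genes DKO replicate 3 was not the most distant DKO library: its root mean square difference from the mean of the other DKO libraries was 0.629 on the log2 scale, against 0.705 for DKO replicate 4. Results are therefore given with and without DKO replicate 3. That library was singled out by its marker values, so the values without it describe how far the group means rest on it and are not an independent test.

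**Figure D1:**
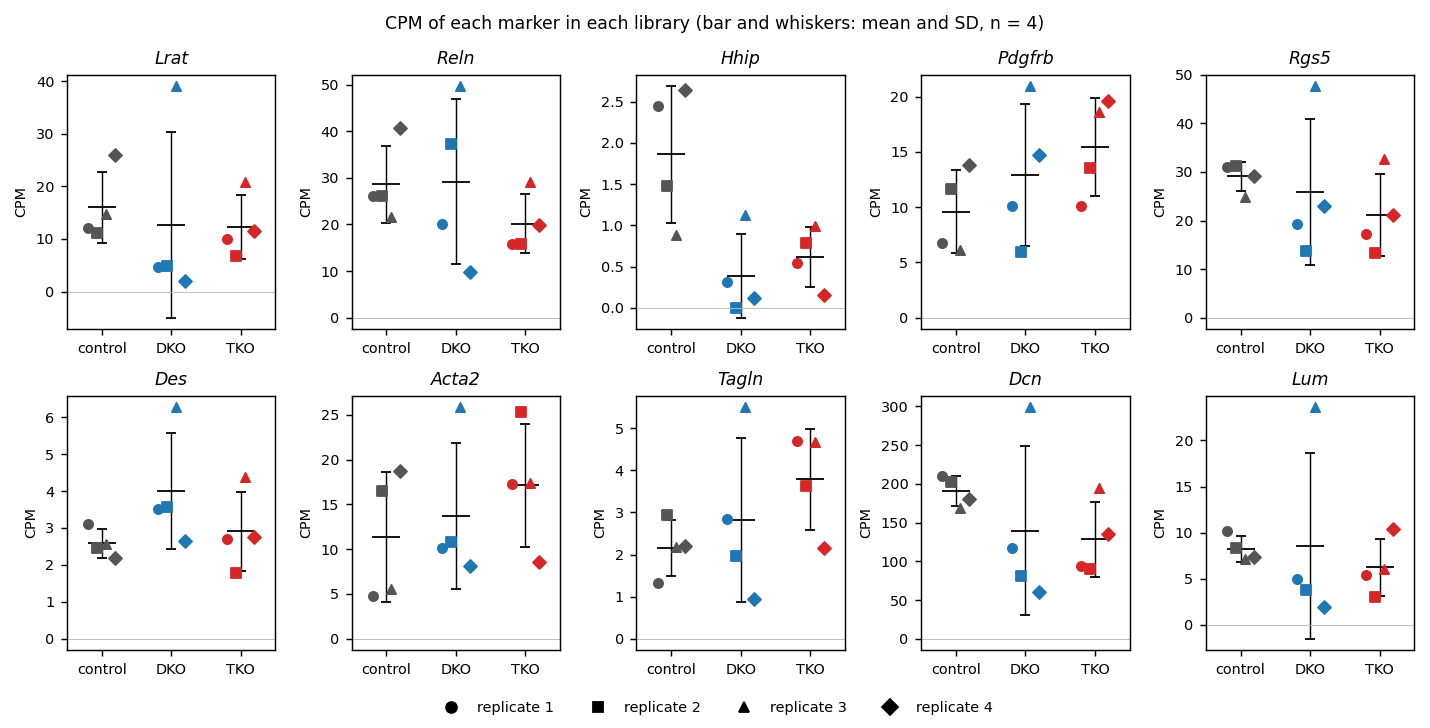
Level of each of the 10 markers in every library (CPM, linear axis), with control in gray, DKO in blue and TKO in red, the marker shape giving the replicate number, and the bar and whiskers giving mean and SD of the 4 libraries. DKO replicate 3 (blue triangle) is the highest DKO point in all 10 panels, and in no panel do all 4 points of a tumor group lie outside the control points on 1 side.

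No marker passed the test in any comparison. With edgeR's quasi-likelihood test and Benjamini-Hochberg adjustment over all tested genes, 0 of 10 markers passed at an adjusted p under 0.05 in DKO against control, where 2.42% of all genes did. In TKO against control 0 of 10 passed (0.0864% of all genes), and in TKO against DKO 0 of 10 passed (0% of all genes). At an unadjusted p under 0.05 the markers gave 1 of 10, 0 of 10 and 0 of 10 in these comparisons, where all genes gave 24%, 16.3% and 9%. DESeq2 called 0 markers in each comparison (9.95%, 3.32% and 0.398% of all genes), as did limma voom with quality weights (13%, 0.699% and 0%). In no comparison did all 4 libraries of a group lie above or below all 4 of the other group for any marker, while 16.2%, 7.67% and 4.87% of all genes were separated in this way. The median log2 fold change over the 10 markers was 0.04 in DKO against control, -0.40 in TKO against control and -0.09 in TKO against DKO, with 0.02, 0.02 and 0.01 over all tested genes. A missed threshold does not show that the markers were unchanged, and the 95% intervals below show how wide the undecided range was.

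*Lrat* encodes lecithin retinol acyltransferase, the enzyme that makes the retinyl esters stored by quiescent stellate cells (mm9, chr3:82696501-82707895, minus strand). It measured 12.2, 11.1, 14.8 and 25.9 CPM in control replicates 1 to 4. In DKO replicates 1 to 4 it measured 4.75, 4.83, 39.1 and 2.06 CPM. In TKO replicates 1 to 4 it measured 10.01, 6.82, 20.9 and 11.5 CPM. The 3 low DKO tumors thus lay below every control liver and the remaining tumor above every control liver, while the TKO tumors overlapped the controls. The log2 fold change in DKO against control was -0.33 ± 0.73 (SE), with a 95% interval from -1.93 to 1.27 and an adjusted p of 0.819. With DKO replicate 3 left out the DKO mean was 3.88 ± 1.57 CPM (SD, n = 3) against 16 ± 6.80 CPM in controls, a log2 fold change of -2.06 ± 0.46 (SE) that passed at an adjusted p of 0.0415.

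*Reln*, the gene of the secreted glycoprotein reelin, marks stellate cells in the adult liver (chr5:21390272-21850523, minus strand). Control replicates 1 to 4 held 26.03, 26.1, 21.7 and 40.7 CPM. DKO replicates 1 to 4 held 20.2, 37.2, 49.7 and 9.79 CPM, and TKO replicates 1 to 4 held 15.7, 15.7, 29.1 and 19.99 CPM. The DKO tumors spread on both sides of the controls, and 3 of 4 TKO tumors lay below the lowest control. The log2 fold changes were 0.03 ± 0.41 (SE) in DKO and -0.51 ± 0.41 in TKO against control (adjusted p of 0.975 and 0.576).

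*Hhip* encodes a membrane protein that binds Hedgehog ligands and holds back their signal, and it is itself a target gene of that signal (chr8:82490014-82581905, minus strand). It was the lowest of the 10 markers, with 0 to 36 counts per library, so that its values carry a large counting error. Control replicates 1 to 4 measured 2.45, 1.48, 0.881 and 2.64 CPM. DKO replicates 1 to 4 measured 0.307, 0, 1.12 and 0.118 CPM, where the count of 0 allows up to 0.237 CPM (3 counts, counting error only). TKO replicates 1 to 4 measured 0.543, 0.782, 0.997 and 0.149 CPM. In both tumor groups 3 libraries lay below the lowest control, and replicate 3 lay just above it. This was the marker with the lowest p in DKO against control, with a log2 fold change of -2.19 ± 0.79 (SE), a 95% interval from -3.94 to -0.49 and an adjusted p of 0.119. The log2 fold change in TKO against control was -1.59 ± 0.77 (adjusted p of 0.326). The DKO change was -3.64 ± 0.82 when DKO replicate 3 was left out and passed at an adjusted p of 0.0403, on 0 to 4 counts in each remaining DKO library.

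*Pdgfrb*, the receptor for PDGF-BB that stellate cells, pericytes and fibroblasts carry (chr18:61204804-61244715, plus strand), gave 6.75, 11.7, 6.10 and 13.8 CPM in control replicates 1 to 4. It gave 10.1, 5.93, 20.9 and 14.7 CPM in DKO replicates 1 to 4, and 10.1, 13.5, 18.6 and 19.6 CPM in TKO replicates 1 to 4. In both tumor groups 2 of 4 libraries lay above the highest control. The log2 fold changes were 0.44 ± 0.38 (SE) in DKO (adjusted p of 0.509) and 0.69 ± 0.38 in TKO (adjusted p of 0.398).

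*Rgs5* encodes a regulator of G-protein signaling found in pericytes and stellate cells (chr1:171585632-171625944, plus strand). Control replicates 1 to 4 were close together at 31.1, 31.2, 24.9 and 29.1 CPM. DKO replicates 1 to 4 measured 19.3, 13.7, 47.7 and 23.0 CPM, and TKO replicates 1 to 4 measured 17.3, 13.4, 32.8 and 21.2 CPM. In both tumor groups replicates 1, 2 and 4 lay below the lowest control and replicate 3 lay above the highest. The log2 fold changes were -0.16 ± 0.35 (SE) in DKO and -0.46 ± 0.35 in TKO (adjusted p of 0.810 and 0.551). Leaving out DKO replicate 3 gave a DKO mean of 18.7 ± 4.69 CPM (SD, n = 3), a change of -0.64 ± 0.28 (SE) with an adjusted p of 0.191.

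*Des* encodes desmin, an intermediate filament protein of stellate cells and muscle (chr1:75356904-75365154, plus strand). Control replicates 1 to 4 gave 3.12, 2.46, 2.58 and 2.20 CPM, DKO replicates 1 to 4 gave 3.53, 3.56, 6.27 and 2.65 CPM, and TKO replicates 1 to 4 gave 2.71, 1.78, 4.37 and 2.76 CPM. Among the DKO tumors 3 of 4 were above the highest control, and the log2 fold change was 0.63 ± 0.32 (SE) with an adjusted p of 0.255. In TKO the change was 0.16 ± 0.32 (adjusted p of 0.851).

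*Acta2*, smooth muscle actin, and *Tagln*, transgelin, are the contractile markers of activated stellate cells and also of vascular smooth muscle (*Acta2*, chr19:34315580-34329826, minus strand; *Tagln*, chr9:45737711-45744141, minus strand). *Acta2* varied widely within controls, at 4.75, 16.5, 5.56 and 18.7 CPM in replicates 1 to 4. It measured 10.1, 10.8, 25.8 and 8.14 CPM in DKO and 17.3, 25.3, 17.4 and 8.58 CPM in TKO replicates 1 to 4, so that most tumor values fell inside the control range. Its log2 fold changes were 0.28 ± 0.50 (SE) in DKO and 0.60 ± 0.50 in TKO (adjusted p of 0.770 and 0.595). *Tagln* measured 1.34, 2.95, 2.17 and 2.20 CPM in control, 2.84, 1.98, 5.50 and 0.943 CPM in DKO and 4.70, 3.63, 4.68 and 2.16 CPM in TKO replicates 1 to 4. Among the TKO tumors 3 of 4 lay above every control for *Tagln*, with a log2 fold change of 0.82 ± 0.47 and an adjusted p of 0.410. In DKO its change was 0.40 ± 0.47 (adjusted p of 0.641).

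For 6 of the 10 markers (*Lrat*, *Reln*, *Hhip*, *Rgs5*, *Des* and *Acta2*) a RefSeq promoter window on GRCm38.p6 was at hand, from 250 bases before to 50 bases after the start. Contractile genes such as *Acta2* are known targets of serum response factor, which binds the CArG box, a 10-base motif of CC, 6 bases that are each A or T, and GG. The exact motif was in 0 of these 6 windows and in 1.63% of 32851 windows of all genes, both strands searched. With at most 1 G or C allowed in its core, a form looked for only after the exact one had been, it was in 9.98% of all windows and in those of *Acta2* and *Lrat*. The bases before the start of both genes are shown because they hold these matches, in capitals, at -84 to -75 and -34 to -25 in *Acta2* (chr19:34255374-34255623, minus strand) and at -223 to -214 in *Lrat* (chr3:82903975-82904224, minus strand), read 5′ to 3′ on the gene's strand.
Acta2: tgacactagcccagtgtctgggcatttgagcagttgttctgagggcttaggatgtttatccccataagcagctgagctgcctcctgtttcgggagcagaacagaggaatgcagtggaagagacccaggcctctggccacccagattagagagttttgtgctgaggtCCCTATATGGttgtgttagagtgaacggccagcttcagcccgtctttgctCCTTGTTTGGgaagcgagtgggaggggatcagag
Lrat: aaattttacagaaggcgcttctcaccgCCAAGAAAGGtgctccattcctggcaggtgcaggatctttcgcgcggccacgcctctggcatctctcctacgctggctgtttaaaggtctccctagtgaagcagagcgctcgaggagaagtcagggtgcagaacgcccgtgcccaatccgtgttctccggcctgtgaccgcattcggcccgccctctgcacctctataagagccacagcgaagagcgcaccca
The motif TATAAA was in 13.6% and the GLI site GACCACCCA in 0.253% of all windows, and both were in 0 of the 6. A match describes the letters in these windows and is not evidence of binding.

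*Dcn* and *Lum* encode decorin and lumican, small leucine-rich proteoglycans that bind collagen fibrils, and the genes are neighbors on chromosome 10 (*Dcn*, chr10:96942245-96980777; *Lum*, chr10:97028135-97035337; both on the plus strand). *Dcn* was the most abundant marker, at 210, 202, 168 and 180 CPM in control replicates 1 to 4. It measured 117, 81.3, 299 and 59.7 CPM in DKO and 94.2, 89.8, 194 and 135 CPM in TKO replicates 1 to 4. Replicates 1, 2 and 4 of both tumor groups lay below every control, DKO replicate 3 lay above every control and TKO replicate 3 lay within the control range. *Lum* measured 10.2, 8.36, 7.18 and 7.32 CPM in control, 4.98, 3.80, 23.6 and 1.95 CPM in DKO and 5.43, 2.99, 6.06 and 10.4 CPM in TKO replicates 1 to 4. In both tumor groups 3 libraries lay below the lowest control. The log2 fold changes in DKO were -0.45 ± 0.43 (SE) for *Dcn* (adjusted p of 0.553) and 0.06 ± 0.63 for *Lum* (adjusted p of 0.966). In TKO they were -0.57 ± 0.43 and -0.41 ± 0.63 (adjusted p of 0.544 and 0.798). The DKO changes without replicate 3 were -1.15 ± 0.30 for *Dcn* and -1.22 ± 0.41 for *Lum* (adjusted p of 0.0583 and 0.106).

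Per length of transcript, on the scale of CPM per kilobase of exon (RPKM), *Dcn* was the highest marker in each group, with means of 98.2 ± 10.1 in control, 71.8 ± 56.3 in DKO and 66.2 ± 25 in TKO. *Acta2* (6.39 ± 4.08 RPKM) and *Rgs5* (6.40 ± 0.644 RPKM) followed in controls and did not differ beyond their spread. *Lum* (3.99 ± 0.679 RPKM), *Lrat* (2.99 ± 1.27 RPKM) and *Pdgfrb* (1.75 ± 0.688 RPKM) came next, and the spreads of *Lum* and *Lrat* and of *Lrat* and *Pdgfrb* overlapped. *Reln* (1.44 ± 0.419 RPKM), *Tagln* (1.36 ± 0.416 RPKM), *Des* (0.689 ± 0.103 RPKM) and *Hhip* (0.380 ± 0.169 RPKM) had the lowest means, the spreads of *Reln* and *Tagln* overlapping each other and that of *Pdgfrb*. Every marker except *Acta2* (63.8% in controls and 59.5% in DKO) had a lower coefficient of variation among control livers than among DKO tumors. This rested in part on DKO replicate 3. *Lrat* stood at 42.5% in controls and 139% in DKO, but at 40.6% without that library (n = 3). The coefficient of variation was 10.3% in controls and 78.3% in DKO for *Dcn*, 10.1% and 57.9% for *Rgs5*, and 17.0% and 118% for *Lum*. Without DKO replicate 3 the DKO coefficients were 33.5%, 25.1% and 42.8% (n = 3). In TKO the coefficients were 37.7% for *Dcn*, 39.6% for *Rgs5* and 49.9% for *Lum*.

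As a check that did not use the spread of other genes, each marker was compared by a two-sided exact permutation test on log2 CPM, 4 libraries against 4, whose smallest possible p is 0.0286. The lowest value that this exact test reached was p = 0.0571, for *Hhip* in both comparisons with controls and for *Des* in DKO against control. In TKO against DKO, where *Rb1* deletion is the labelled difference, the markers' log2 fold changes ran from -0.54 ± 0.41 (SE) for *Reln* to 0.61 ± 0.83 for *Hhip*. The 95% interval of the TKO against DKO difference ran from -1.65 to 1.55 for *Lrat*, from -0.76 to 1.40 for *Acta2* and from -1.04 to 0.81 for *Dcn*, so that changes of this size in either direction were left undecided.

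Leaving out DKO replicate 3 changed the picture in DKO against control. Of the 10 markers, 2 then passed (*Lrat* and *Hhip*, both lower), where 2.93% of all 13959 genes tested did. A total of 5 markers (*Lrat*, *Hhip*, *Rgs5*, *Dcn* and *Lum*) were lower in all 3 remaining DKO tumors than in all 4 controls, where 22.8% of all genes were separated in either direction. The median log2 fold change over the markers was -0.50, against 0.01 over all genes. None of the contractile and receptor markers passed. The log2 fold change of *Acta2* went from 0.28 with all libraries to -0.23 ± 0.48 (SE) and that of *Tagln* from 0.40 to -0.17 ± 0.42, both changing sign, while *Des* went from 0.63 to 0.32 ± 0.30 and *Pdgfrb* from 0.44 to 0.11 ± 0.37. In TKO against DKO without that library 0 of 10 markers passed with edgeR, 3 had an unadjusted p under 0.05 (10.1% of all genes did), and *Lrat* was higher in all TKO than in all 3 DKO tumors (log2 fold change of 1.67 ± 0.45, adjusted p of 0.316, with 9.48% of all genes separated).

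**Figure D2:**
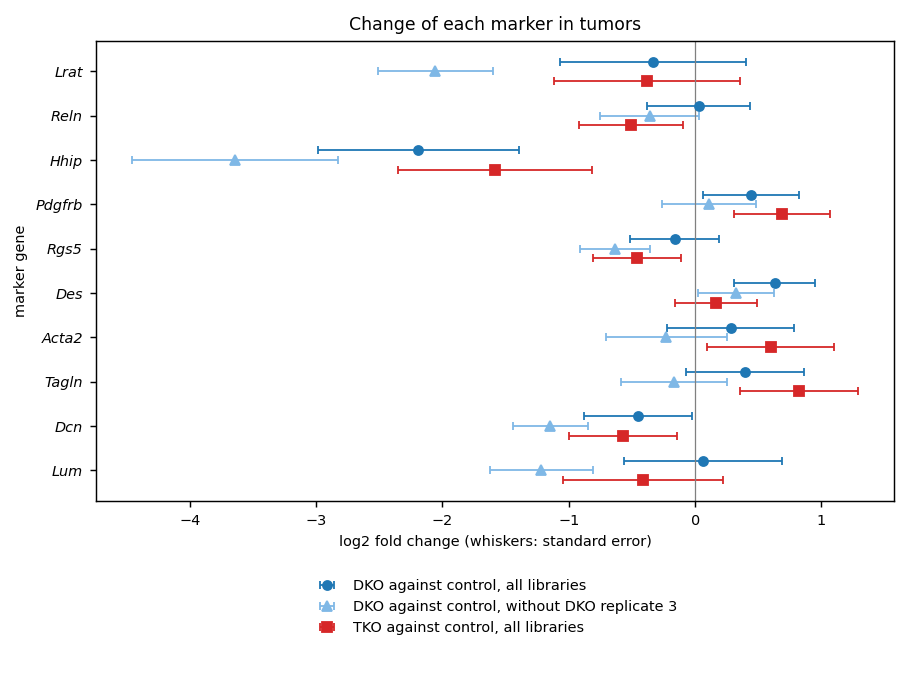
Log2 fold change of each marker against control livers (points, with whiskers for the standard error), for DKO with all libraries (dark blue), DKO without replicate 3 (light blue) and TKO (red). *Lrat* moves from -0.33 to -2.06 and *Lum* from 0.06 to -1.22 when DKO replicate 3 is left out, whereas *Pdgfrb* and *Des* stay above 0.

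TKO replicate 3 had a smaller influence of the same direction. Without it 0 of 10 markers passed in TKO against control, where 1.63% of 14163 tested genes did. At an unadjusted p under 0.05 there was 1 of 10, for which the share of all genes is not given here. *Reln*, *Hhip*, *Rgs5* and *Dcn* were then lower in all 3 remaining TKO tumors than in all controls, where 16.2% of all genes were separated. TKO replicate 3 was also singled out by its marker values, so the values without it are not an independent test. Leaving out TKO replicate 4 separated 2 markers, and the share of all genes separated in that setting is not given here. Without TKO replicate 3 the log2 fold change of *Dcn* was -0.84 ± 0.45 (SE, adjusted p of 0.342) and that of *Rgs5* was -0.75 ± 0.35 (adjusted p of 0.272).

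The markers shared the high values of DKO replicate 3 but differed in how alike their patterns were over all libraries. Likeness of pattern was measured as the root mean square difference between log2 CPM values over the 12 libraries, each gene centered on its own mean, where 0 would be an identical pattern. The closest pair of markers was *Rgs5* and *Dcn* (0.36), followed by *Dcn* and *Lum* (0.41) and *Rgs5* and *Des* (0.47). *Acta2* and *Tagln* were each other's nearest marker at 0.51, and *Hhip* and *Des* were the least alike at 1.38. This measure also grows with the range of a gene, and *Hhip* had a range of 4.27 on the log2 scale at very low counts. Among all tested genes, *Abi3bp* (0.34) and *Col14a1* (0.40), which encode proteins of the extracellular matrix, were most like *Lrat*. *Dglucy* (0.35) and *Nynrin* (0.35) were most like *Reln*, and *Tmem266* (0.52) and *Itgb7* (0.58) were most like *Hhip*. *Dbn1* (0.25) and *Loxl2* (0.26), a lysyl oxidase that acts on collagen, were nearest to *Pdgfrb*. *Snx29* (0.22) and *Gucy1b1* (0.26), a subunit of the nitric oxide receptor guanylate cyclase, were nearest to *Rgs5*, and *Armcx2* (0.25) and *Trim35* (0.26) to *Des*. *Numbl* (0.30) and *Dync2li1* (0.44) were nearest to *Acta2*, and *Pop1* (0.36) and *Il27ra* (0.37) to *Tagln*. *Cadm3* (0.23) and *Ms4a4d* (0.24) were nearest to *Dcn*, while *Omd* (0.30), another small leucine-rich proteoglycan, and *Art4* (0.33) were nearest to *Lum*. These are descriptions over 12 libraries that share the high values of DKO replicate 3.

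The balance between markers within a library needs no library size. Taken as counts per 100 counts of *Dcn* in the same library, a measure chosen after the values were seen, *Des* stood at 1.48, 1.22, 1.53 and 1.22 in control replicates 1 to 4. It stood at 3.02, 4.38, 2.10 and 4.44 in DKO and at 2.88, 1.98, 2.25 and 2.05 in TKO replicates 1 to 4. Every tumor was therefore above every control for *Des* relative to *Dcn*, DKO replicate 3 included. *Tagln* did the same, with 0.635 to 1.46 in control, 1.58 to 2.43 in DKO and 1.60 to 4.99 in TKO. *Pdgfrb* was separated in TKO (9.56 to 15.0 against 3.21 to 7.70 in control) but not in DKO (7.01 to 24.7), and *Acta2* overlapped between all groups (2.26 to 10.4, 8.65 to 13.6 and 6.36 to 28.2). *Hhip* was lower relative to *Dcn* in every DKO tumor (0 to 0.376) than in every control (0.524 to 1.47). *Rgs5* kept nearly the same ratio to *Dcn* in 11 of the 12 libraries, at 14.8 to 18.4, with 38.5 in DKO replicate 4. Of all other tested genes, 5.11% were separated by this ratio in DKO against control, 11.7% in TKO against control and 0.418% in TKO against DKO. Of the 9 other markers 3, 3 and 0 were separated, and no test was made. A ratio shows unequal change of a pair of genes and does not say which of them changed.

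**Figure D3:**
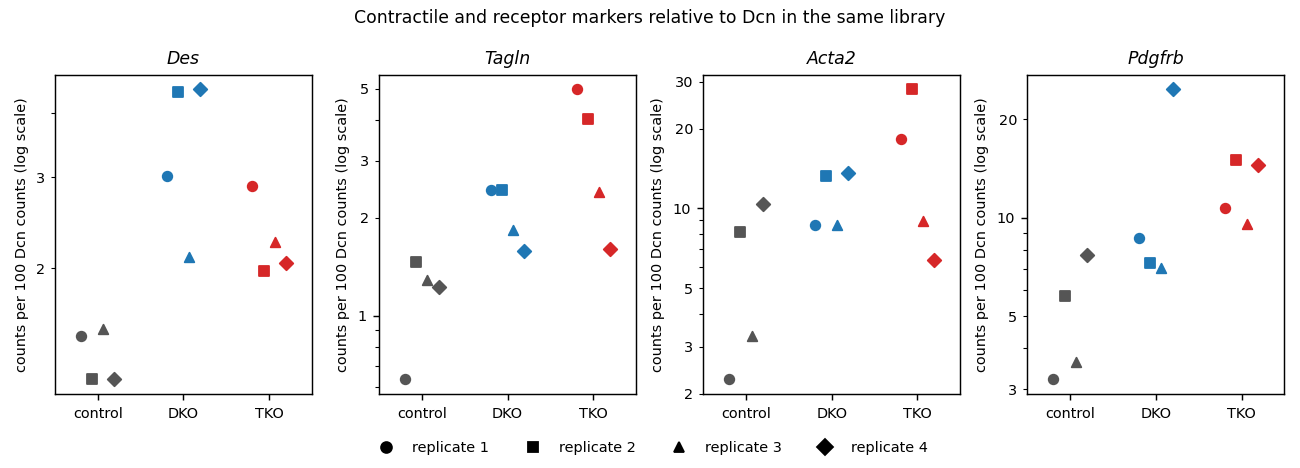
Counts of *Des*, *Tagln*, *Acta2* and *Pdgfrb* per 100 counts of *Dcn* in the same library (log axis), by group, with the marker shape giving the replicate number. All 8 tumors lie above the 4 controls for *Des* and *Tagln*, while *Acta2* overlaps.

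The wider list of quiescent stellate cell genes held 25 genes, 24 of them tested, with the markers *Lrat*, *Reln* and *Dcn* among them. With edgeR 0 of 24 passed in DKO against control (5 at an unadjusted p under 0.05 and 3 with DESeq2), and 20 of 24 had the lower mean in DKO, with a median log2 fold change of -0.80. In TKO against control 0 of 24 passed (2 at an unadjusted p under 0.05 and 1 with DESeq2), and 21 of 24 had the lower mean in TKO, with a median of -0.50. In TKO against DKO 0 of 24 passed (1 at an unadjusted p under 0.05 and 0 with DESeq2), with a median of 0.02. DKO replicate 3 was the highest DKO library for 21 of the 25 genes, and TKO replicate 3 the highest TKO library for 23 of 25. DKO replicate 3 was left out for its high values of markers, some of them in this list. Lower list values without it follow in part from that choice and are not an independent test. Without that library the median was -1.92, against 0.01 over all genes. Then 8 of 24 passed as lower in DKO, where 2.93% of all genes passed in either direction. The 8 genes were *Lrat*, the growth factor gene *Hgf* (log2 fold change of -2.33 ± 0.47 SE), the VIP receptor gene *Vipr1* (-2.23 ± 0.52), the transcription factor genes *Hand2* (-1.83 ± 0.43) and *Tcf21* (-2.94 ± 0.48), the neurotrophin receptor gene *Ngfr* (-3.41 ± 0.80), the BMP ligand gene *Bmp10* (-2.60 ± 0.59) and the matrix protein gene *Adamtsl2* (-1.87 ± 0.41). Some of these changes rest on very low values with a large counting error. The remaining DKO tumors held 0.236 to 0.613 CPM of *Tcf21*, 0.295 to 0.613 CPM of *Ngfr* and 0.118 to 0.87 CPM of *Bmp10*.

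*Hgf* shows the pattern by library. It measured 14.2, 13.4, 11.1 and 13.7 CPM in control replicates 1 to 4. It measured 3.91, 2.77, 15.1 and 1.18 CPM in DKO replicates 1 to 4, and 3.74, 4.12, 11.2 and 4.03 CPM in TKO replicates 1 to 4. Replicates 1, 2 and 4 of both tumor groups were far below the controls, and replicate 3 of each was at the control level. *Colec10*, which encodes a collectin, gave 31.6, 35.7, 35.2 and 49.0 CPM in control, 7.05, 7.04, 39.3 and 1.12 CPM in DKO, and 9.77, 12.2, 44.4 and 3.28 CPM in TKO replicates 1 to 4, with the same libraries at the control level. It was not called in either comparison (adjusted p of 0.322 in DKO and 0.551 in TKO). These 2 genes were picked as examples after their values were seen. Without TKO replicate 3, also singled out by its marker values, the median of the list in TKO against control was -1.01, with 21 of 24 genes lower.

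*Nes*, the intermediate filament gene nestin, was among the genes of the list with the lowest p in DKO and went against most of the list, at 5.27 ± 2.66 CPM against 2.17 ± 0.612 CPM (adjusted p of 0.0785).

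**Figure D4:**
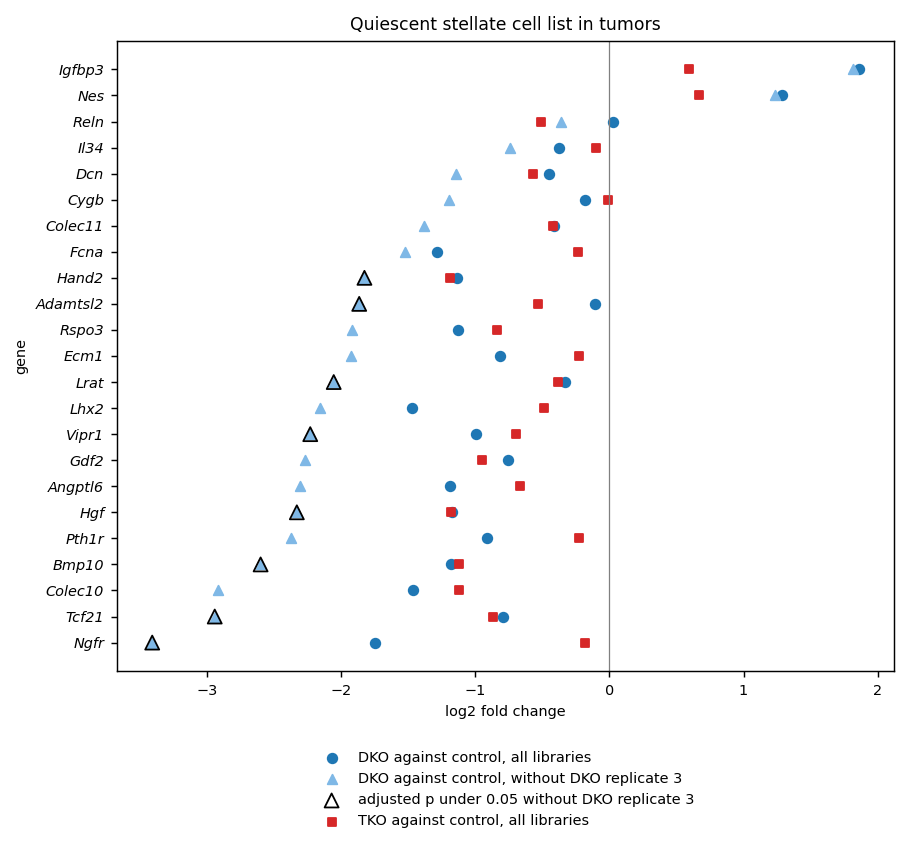
Log2 fold change against control livers for 23 of the 24 tested genes of the quiescent stellate cell list, for DKO with all libraries (dark blue circles), DKO without replicate 3 (light blue triangles, black outline where the adjusted p was under 0.05) and TKO (red squares). Without DKO replicate 3 the median over all 24 is -1.92, and of the genes drawn *Igfbp3* and *Nes* lie above 0.

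Genes of the pathways around each marker gave few calls. Of 19 tested genes of retinoid handling, 0 passed with edgeR in any comparison (7, 2 and 3 at an unadjusted p under 0.05 in DKO against control, TKO against control and TKO against DKO, and 2, 1 and 0 with DESeq2). *Retsat*, retinol saturase, was lowest in p, at 109 ± 41.1 CPM in DKO against 330 ± 106 CPM in control with no overlap (adjusted p of 0.0521). Of 6 PDGF ligands and receptors, 0 passed (2, 0 and 1 at an unadjusted p under 0.05, and 2, 0 and 0 with DESeq2). The ligand genes *Pdgfd* and *Pdgfb* had log2 fold changes of 1.42 ± 0.41 (SE) and 1.27 ± 0.38 in DKO (adjusted p of 0.0758 and 0.0806). Without DKO replicate 3 *Pdgfra*, the other PDGF receptor, was lower and passed, at 1.59 CPM in the remaining DKO tumors against 10.1 CPM in controls (-2.67 ± 0.55, adjusted p of 0.0360), while that library itself held 11.8 CPM. Of 9 tested Hedgehog genes, 0 passed (1 at an unadjusted p under 0.05 in each comparison, and 1, 0 and 0 with DESeq2). *Gas1*, a Hedgehog co-receptor, measured 0.767, 1.27, 7.22 and 1.06 CPM in DKO replicates 1 to 4 and 10.01, 14.3, 14.1 and 12.6 CPM in control replicates 1 to 4, with no overlap and an adjusted p of 0.0935, which became 0.0252 without DKO replicate 3 (-3.61 ± 0.66). *Smo*, the Hedgehog signal transducer, had the lowest p of this list in TKO (19.5 ± 6.43 against 10.5 ± 2.99 CPM in control, adjusted p of 0.264).

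In the list of small leucine-rich proteoglycans, 0 of 7 tested passed with edgeR in any comparison (1, 0 and 0 at an unadjusted p under 0.05, and 0 with DESeq2). *Ecm2* was at 1.24 ± 0.325 CPM in DKO against 0.538 ± 0.132 CPM in control (adjusted p of 0.127), and *Aspn* at 1.90 ± 1.48 CPM in TKO against 0.705 ± 0.251 CPM in DKO (adjusted p of 0.631). Without DKO replicate 3 *Podn* passed as lower in DKO, at 0.606 CPM against 2.20 CPM in controls (-1.83 ± 0.40 SE, adjusted p of 0.0403), with 6.57 CPM in that library. Of the reelin receptor *Vldlr* and the adaptor *Dab1*, 0 of 2 passed (1, 1 and 0 at an unadjusted p under 0.05, and 1, 1 and 0 with DESeq2). *Dab1* had log2 fold changes of 2.17 ± 0.72 in DKO and 2.24 ± 0.72 in TKO (adjusted p of 0.1 and 0.175), and *Vldlr* had 0.24 ± 0.63 in TKO (adjusted p of 0.894).

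Calls appeared in the lists of collagen and activation genes, of TGF-beta signaling, of smooth muscle and of pericytes, all of them higher in DKO than in control. Of 21 TGF-beta genes 3 passed in DKO. *Thbs1*, thrombospondin, which can activate latent TGF-beta, measured 8.20, 7.75, 11.7 and 11.7 CPM in DKO replicates 1 to 4 against 4.97, 2.71, 4.34 and 2.93 CPM in control replicates 1 to 4 (log2 fold change of 1.39 ± 0.25 SE, adjusted p of 0.0344), and *Tgfbr2*, the type II receptor, was at 80.5 ± 11.8 against 24.2 ± 8.51 CPM (adjusted p of 0.0448). Among the 21 genes 0 passed in TKO against control and TKO against DKO (4 and 3 at an unadjusted p under 0.05, and 2 and 1 with DESeq2). In TKO against control *Tgfbr2* stood at 1.37 ± 0.37 (SE, adjusted p of 0.137) and *Thbs1* at 0.78 ± 0.25 (adjusted p of 0.170).

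Of 18 tested collagen and activation genes 1 passed in DKO, *Sparc*, a matrix glycoprotein, at 173 ± 50.2 against 81.8 ± 18.5 CPM (log2 fold change of 1.09 ± 0.22 SE, adjusted p of 0.0425), and the list's median was -0.05. Among these 18 genes 0 passed in TKO against control and TKO against DKO (1 and 1 at an unadjusted p under 0.05, and 1 and 0 with DESeq2), and *Sparc* stood at 1.06 ± 0.22 in TKO against control (adjusted p of 0.0915). Of 11 smooth muscle genes 1 passed in DKO, *Tpm1*, a tropomyosin, at 74.2 ± 11.4 against 41.6 ± 8.58 CPM (adjusted p of 0.0425), and 0 in the other comparisons (1 and 1 at an unadjusted p under 0.05, and 0 and 0 with DESeq2). Of 11 pericyte genes 1 passed in DKO, *Mcam*, an adhesion molecule also carried by endothelium, at 15.2 ± 10.8 against 3.48 ± 0.831 CPM (adjusted p of 0.0449), and 0 in the others (2 and 1 at an unadjusted p under 0.05, and 1 and 0 with DESeq2). In TKO against control *Mcam* stood at 1.39 ± 0.46 (SE, adjusted p of 0.183), with no overlap, and *Tpm1* at 0.35 ± 0.17 (adjusted p of 0.326). Over all lists 7 of 191 tested genes passed in DKO against control (3.66%, near the 2.42% of all genes), and this count was 0 without control replicate 2, 3 or 4, 4 without control replicate 1, 1 without DKO replicate 1, 2 or 4, 19 without DKO replicate 3, 2 without TKO replicate 1 and 11 without TKO replicate 3 or 4. Of 10 tested portal fibroblast genes 0 passed in any comparison (3, 4 and 0 at an unadjusted p under 0.05, and 3, 0 and 0 with DESeq2), with *Cd34* at 16.1 ± 11.1 against 3.99 ± 1.73 CPM (adjusted p of 0.0573) and *Eln*, elastin, at 5.40 ± 1.95 against 1.89 ± 0.970 CPM in DKO (adjusted p of 0.0860).

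Lists for some other cell types had their highest sum in replicate 3 of the tumor groups, and others did not. A sum follows its most abundant genes. The biliary list was highest in DKO replicate 1 and TKO replicate 2. The mesothelial sum was highest in DKO replicate 4 and TKO replicate 1, but it was nearly all *Krt18*. That gene held 302 of 307 CPM in DKO replicate 4 and 254 of 258 CPM in TKO replicate 1. *Upk1b* of the same list was highest in replicate 3 of both tumor groups, at 2.84 CPM in DKO and 0.997 CPM in TKO. The mesothelial sum therefore does not show how mesothelial genes other than *Krt18* ran. The pericyte sum was highest in replicate 1 and the smooth muscle sum in replicate 4 of both tumor groups. In the pericyte list *Steap4* reached 6334 counts in a library, against at most 752 for *Abcc9*, so its sum leans on *Steap4*. The markers *Rgs5* and *Pdgfrb*, also carried by pericytes, were highest among the DKO tumors in replicate 3. Summed over 10 Kupffer cell and macrophage genes, DKO replicates 1 to 4 held 297, 246, 555 and 143 CPM and TKO replicates 1 to 4 held 238, 434, 722 and 233 CPM. Summed over 12 liver endothelial genes, DKO replicates 1 to 4 held 241, 262, 389 and 255 CPM and TKO replicates 1 to 4 held 287, 310, 504 and 260 CPM. Over 8 lymphocyte genes the DKO libraries held 4.14, 4.67, 17.3 and 3.48 CPM. Replicate 3 was thus the highest library of its tumor group for the macrophage, endothelial and lymphocyte lists. The same held for the stellate list, where it held 887 CPM in DKO (322 to 431 CPM in the others) and 668 CPM in TKO (326 to 406 CPM in the others). Over 12 hepatocyte genes DKO replicates 1 to 4 held 408600, 273300, 166800 and 168400 CPM. TKO replicates 1 to 4 held 214000, 284500, 121500 and 78010 CPM, and the controls 120100 to 179300 CPM. *Alb* alone took 4.82% to 22.7% of the counts of a library. The control livers spanned 260 to 670 CPM for the macrophage genes and 203 to 314 CPM for the endothelial genes. Their part in the marker values was not tested.

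With edgeR 1 of 12 endothelial genes passed in DKO against control, *Emcn*, endomucin, at 7.23 ± 4.72 against 1.70 ± 0.404 CPM (adjusted p of 0.0475). *Emcn* was at 3.97 ± 2.14 CPM in TKO, with no overlap with control and an adjusted p of 0.2365. In each comparison 0 genes passed among the tested genes of the hepatocyte (12), macrophage (10), lymphocyte (7), mesothelial (6), biliary (4), striated muscle (2) and pancreas and adipocyte lists (2). At an unadjusted p under 0.05 these lists gave 2, 1, 1, 0, 0, 1 and 1 genes in DKO against control, and DESeq2 gave 1 in the last and 0 in the others. The corresponding counts in TKO against control were 1, 1, 0, 0, 0, 1 and 1, with 1 by DESeq2 in the first, and in TKO against DKO 0, 0, 1, 0, 0, 0 and 0, with 0 by DESeq2. For the endothelial list edgeR called 0 genes in these last comparisons (2 and 1 at an unadjusted p under 0.05, 0 and 0 with DESeq2). The biliary genes summed to 19.5 to 28.7 CPM in controls, 21.2 to 55.4 CPM in DKO and 29.0 to 40.9 CPM in TKO, and the mesothelial genes to 95.8 to 203 CPM, 157 to 307 CPM and 140 to 258 CPM. *Prss1* and, in the Hedgehog list, *Disp1* were at 0 in every library.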

How the data were processed

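Polyadenylated RNA of 12 tissue samples was sequenced as 40-base SOLiD reads, 4 livers per group according to the study's methods. The authors mapped the reads to mm9 with BWA and deposited raw read counts per Entrez gene from featureCounts (versions, strand and multimapping settings not given in the sources used here). Entrez IDs were matched to RefSeq symbols (24191 of 26301, holding 99.41% of counts). Gene positions and exon lengths came from GENCODE vM1 (mm9) and promoter sequences from RefSeq (GRCm38.p6). The counts were tested with edgeR 4.0.16 in R 4.3.3 (TMM, filterByExpr, quasi-likelihood F-test, 1 mean per group over 12 libraries, calls at an adjusted p under 0.05 over 13882 genes). Single markers were also tested by exact permutation (70 assignments of log2 CPM, prior count 2). Alternatives used DESeq2 1.42.0 and limma 3.58.1, other scalings and filters, a replicate block and leaving out each library. The fit was tested on simulated data. No pair of libraries of a group agreed within sampling noise (chi-square per degree of freedom of 18.5 or more).

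The 10 markers and the 19 gene lists around them were chosen with earlier results of these data known. Named genes were all 10 markers, the genes of each list that edgeR called (at most 4) or otherwise the 2 with the lowest p, and the 2 genes most like each marker in pattern. The p-values cover the spread between these tissue samples, as do the 95% intervals of fold changes, while the limit given for a count of 0 covers counting error only. Overlapping genes and shared reads could not be resolved from gene counts. Some genes that enter the counts of the lists are not reported here by name.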

Additional observations from a re-analysis of the deposited data

Results flagged for a closer look

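Each of the 10 markers was looked at in each group of 4 libraries, 30 groups in all, for a library whose gap to its neighbor took up more of the group's range than Dixon's 95% critical value allows, which chance gives in about 1 of 20 groups. In 3 groups this was met, each through DKO replicate 3: *Lrat* at 39.1 CPM (0.925 of the range), *Lum* at 23.6 CPM (0.860) and *Acta2* at 25.8 CPM (0.852). The other 3 DKO tumors held 2.06 to 4.83 CPM of *Lrat*, 1.95 to 4.98 CPM of *Lum* and 8.14 to 10.8 CPM of *Acta2*. The sums of macrophage, lymphocyte and endothelial genes were also highest in that library among the DKO tumors, and their part in these values was not tested.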

How the results depend on the processing

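Under the alternatives that left out no library of a comparison (DESeq2, limma voom with quality weights, 3 other scalings, 2 other filters, the 8 libraries of a comparison, a replicate block, a sex-linked covariate and an adjusted p under 0.1), 0 of 10 markers passed in any comparison, and the exact permutation tests gave no call with another prior count or with ranks. Their direction reversed for *Rgs5* in DKO against control (0.11 with totals without the 20 top genes), *Lum* in DKO against control (-0.38 with the replicate block, -0.41 with voom), *Reln* in DKO against control (-0.11 with the block), *Lrat* (0.46 with the block, 0.57 with voom) and *Dcn* (0.036 with the block, 0.0032 with voom) in TKO against DKO and *Vldlr* in TKO against control (-0.11 with the block, -0.37 with voom). The 7 listed genes called in DKO against control became 26 with DESeq2, 25 with voom, 26 with totals without the 20 top genes, 1 with total counts only, 13 with the 8 libraries, 17 with the replicate block, 2 with the sex-linked covariate and 23 at an adjusted p under 0.1. In TKO against control the 0 became 7 with DESeq2, 2 with voom, 2 with totals without the 20 top genes and 1 at an adjusted p under 0.1, and in TKO against DKO 1 with DESeq2. With total counts only, 1 marker was separated in TKO against control, and the share of all genes in that setting is not given here. Of the 20 nearest genes in pattern 12 were kept when patterns were also divided by their SD. The cause of these changes was not tested. For *Lrat* in DKO against control DESeq2 gave no adjusted p, so its 0 calls there cover the other markers.

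Leaving out each library in turn gave 0 to 2 markers and 0 to 19 listed genes called in DKO against control, and 0 to 2 listed genes in TKO against control. Markers separated between groups numbered 0 to 5, 0 to 4 and 0 to 1 in DKO against control, TKO against control and TKO against DKO. This alternative was chosen after seeing the data. The 5 and the 1 came without DKO replicate 3, where 22.8% and 9.48% of all genes were separated. The 4 came without TKO replicate 3, where 16.2% were. The median over markers in TKO against DKO ran from -0.41 to 0.69. In DKO against control the log2 fold changes ran from -2.06 to 0.026 for *Lrat*, -0.36 to 0.32 for *Reln*, -0.64 to 0.045 for *Rgs5*, -0.23 to 0.65 for *Acta2*, -0.17 to 0.69 for *Tagln* and -1.22 to 0.39 for *Lum*. In TKO against control they ran from -0.10 to 0.34 for *Des* and -0.50 to 0.53 for *Vldlr*. In TKO against DKO they ran from -0.43 to 1.67 for *Lrat*, -0.59 to 0.18 for *Rgs5*, -0.39 to 0.58 for *Dcn* and -0.84 to 0.81 for *Lum*.

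The replicate numbers are not tied to a litter or batch in the labels, and deviations of same-numbered libraries correlated at -0.17 to 0.37, with 5 of 12 pairs over 0.1. Of 8 libraries in each comparison, 1, 2 and 5 correlated best with their own number in DKO against control, TKO against control and TKO against DKO, a hint from the data and not from the design, strongest in TKO against DKO. Counts limit *Hhip* most, with 0 to 36 per library, then *Tagln* and *Des*. The sex-linked covariate is the log2 level of *Xist* minus that of the Y-linked gene *Ddx3y*, and *Xist* is nearly absent in all libraries. Its values ran from -8.10 to -6.75, so it sets no library apart as being of another sex.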
